A study of Mus musculus with 3 samples.

Results

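Open chromatin at 10 genes of the fibroblast growth factor (FGF) pathway was examined by DNase-seq in mouse Müller cells. The genes are the ligands Fgf2 and Fgf15, the receptors Fgfr1, Fgfr2 and Fgfr3, the feedback inhibitors Spry1, Spry2 and Spry4, and the target transcription factors Etv4 and Etv5. They were listed by name and were not picked by a threshold on these data. All 10 were found among the 21646 protein-coding genes of the annotation, on the autosomes and X.

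DNase-seq finds the stretches of chromatin that DNase I cuts readily, such as promoters and enhancers. FGF ligands bind receptor tyrosine kinases at the cell surface, which switch on the Ras and ERK kinase cascade. ERK signalling raises the transcription of ETS factors such as Etv4 and Etv5 and of the Sprouty genes, whose products in turn dampen the cascade. In the retina, FGF2 is known as a survival factor for photoreceptors and Fgf15 as a gene of embryonic progenitors, and Müller glia are the radial glia that span the tissue.

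The series holds 1 group of 3 biological replicates of primary Müller cells from healthy mice of the strain B6NCrl, aged 12 days, with both sexes pooled. The replicates carry separate biosample labels and the same donor label, so the spread between them may be partly technical. No treatment, genotype or sort is named in the labels, and there is no control group, so no test between groups was possible. For each replicate the authors deposited peaks, which are 150 bp wide, with a score between 1 and 150, and wider hotspots with a −log10 q.

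The deposited peak lists hold 300269, 281185 and 184544 peaks in replicates 1, 2 and 3. Read depth is unknown. All 30 Müller glia marker genes had a promoter site in all 3 replicates, where 67.1% of all protein-coding genes did. The same held for 8 of 8 astrocyte markers, among them Fgfr3, which is also a gene examined here. It also held for 10 of 11 mesenchyme and pericyte markers and 12 of 17 retinal neuron markers. Endothelial markers had such a site at 7 of 10 genes and pigment epithelium markers at 6 of 10. Of the rod markers 3 of 14 had such a site, and no peak was found at the promoters of the rod genes Nrl or Crx. Of 19 microglia and macrophage markers, 19 had a promoter peak in replicate 1, 19 in replicate 2 and 6 in replicate 3. Their summed promoter scores were 1590, 1560 and 378 in replicates 1, 2 and 3, and the defining genes Spi1, Cx3cr1, C1qa and Csf1r had no promoter peak in replicate 3. The summed scores of the Müller glia markers were 3681, 3479 and 3417.

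A site here is a region where peaks of all 3 replicates merged. The strongest distal site of 9 of the genes (all but Spry4) is shown first, that is, the gene's distal site with the highest mean score. At Fgf15 it is the only distal site. Its mean score of 48.7 lies below the median of 62.7 over all distal sites. Distal means over 1 kb from every protein-coding start site, with the gene's start site the nearest within 100 kb. Which gene such a site acts on is not known from its distance. Letters are the plus strand of the GRCm38 reference (mm10), taken from RefSeq. Capitals mark matches, on either strand, to the AP-1 (TGANTCA), ETS (CCGGAAG), PU.1-type ETS (GAGGAAGT), SOX (ACAATGG), TEAD (GGAATG) or homeobox (TAATTA) consensus. A match is a description of the letters and not evidence of a bound factor.
Fgf2 distal chr3:37360796-37361045: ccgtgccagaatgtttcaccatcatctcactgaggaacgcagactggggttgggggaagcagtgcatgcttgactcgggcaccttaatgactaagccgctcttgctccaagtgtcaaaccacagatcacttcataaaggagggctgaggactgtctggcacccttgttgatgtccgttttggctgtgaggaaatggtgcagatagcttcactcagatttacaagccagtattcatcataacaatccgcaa
Fgf15 distal chr7:144895316-144895485: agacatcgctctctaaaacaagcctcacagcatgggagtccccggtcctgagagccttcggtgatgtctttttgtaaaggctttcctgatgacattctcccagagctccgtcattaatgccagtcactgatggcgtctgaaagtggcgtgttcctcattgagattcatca
Fgfr1 distal chr8:25537316-25537485: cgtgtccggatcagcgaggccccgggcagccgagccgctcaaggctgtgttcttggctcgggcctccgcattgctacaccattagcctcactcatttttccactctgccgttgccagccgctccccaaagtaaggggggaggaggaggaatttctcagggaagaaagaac
Fgfr2 distal chr7:130289176-130289345: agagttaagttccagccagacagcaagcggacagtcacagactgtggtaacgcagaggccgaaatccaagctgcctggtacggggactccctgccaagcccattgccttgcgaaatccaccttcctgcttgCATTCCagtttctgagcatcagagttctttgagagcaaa
Fgfr3 distal chr5:33705336-33705525: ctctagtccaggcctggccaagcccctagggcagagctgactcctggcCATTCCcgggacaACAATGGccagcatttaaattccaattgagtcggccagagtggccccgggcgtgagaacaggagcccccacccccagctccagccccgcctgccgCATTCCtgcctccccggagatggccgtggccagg
Spry1 distal chr3:37654076-37654245: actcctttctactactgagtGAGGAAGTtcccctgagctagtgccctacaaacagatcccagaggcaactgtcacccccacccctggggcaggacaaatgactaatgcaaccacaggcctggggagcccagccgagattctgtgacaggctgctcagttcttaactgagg
Spry2 distal chr14:105979936-105980145: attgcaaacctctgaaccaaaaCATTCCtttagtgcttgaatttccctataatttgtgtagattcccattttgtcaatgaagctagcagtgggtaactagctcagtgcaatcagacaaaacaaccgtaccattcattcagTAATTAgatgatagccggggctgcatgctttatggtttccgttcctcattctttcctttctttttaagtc
Etv4 distal chr11:101772556-101772725: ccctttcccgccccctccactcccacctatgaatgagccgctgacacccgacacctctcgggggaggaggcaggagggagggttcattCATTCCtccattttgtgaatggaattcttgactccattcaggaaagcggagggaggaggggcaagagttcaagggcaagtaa
Etv5 distal chr16:22428976-22429185: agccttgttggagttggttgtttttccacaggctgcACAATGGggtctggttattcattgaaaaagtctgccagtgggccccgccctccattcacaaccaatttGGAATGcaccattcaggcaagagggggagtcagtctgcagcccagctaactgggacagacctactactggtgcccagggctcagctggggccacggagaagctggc

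The Etv5 and Fgfr3 sites each hold a SOX match and at least 1 TEAD match. The Spry1 site holds the PU.1-type match, and the Spry2 site a homeobox and a TEAD match. The strongest sites of Fgf2, Fgf15 and Fgfr1 hold none of the marked motifs. Further sites among the 10 highest by mean score are shown for the motif pairs they hold. The Fgfr1 and Etv5 regions each hold a pair of AP-1 matches, and the Spry1 region a TEAD and a homeobox match.
Fgfr1 distal chr8:25465576-25465765: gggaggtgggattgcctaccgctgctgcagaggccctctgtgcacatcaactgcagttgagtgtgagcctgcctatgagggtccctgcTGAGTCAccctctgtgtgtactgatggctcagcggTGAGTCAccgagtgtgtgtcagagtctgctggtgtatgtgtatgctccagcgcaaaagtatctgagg
Etv5 distal chr16:22389196-22389405: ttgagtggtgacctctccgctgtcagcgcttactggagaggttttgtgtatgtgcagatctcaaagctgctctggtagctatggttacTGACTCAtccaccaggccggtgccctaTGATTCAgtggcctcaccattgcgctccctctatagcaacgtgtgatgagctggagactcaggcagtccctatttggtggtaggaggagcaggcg
Spry1 distal chr3:37586176-37586365: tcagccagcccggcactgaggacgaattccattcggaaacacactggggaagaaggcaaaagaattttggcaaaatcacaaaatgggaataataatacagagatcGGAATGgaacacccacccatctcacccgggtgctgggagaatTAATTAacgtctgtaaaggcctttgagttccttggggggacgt

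The sites at the start of Spry2 and Etv5 are shown as examples of promoters that scored high in every replicate. The Etv4 promoter, with scores of 140, 140 and 144, did so as well and is not shown. For Etv5 only the part upstream of the outermost start site is printed. Neither printed sequence holds a match to the marked motifs.
Spry2 promoter chr14:105897296-105897505: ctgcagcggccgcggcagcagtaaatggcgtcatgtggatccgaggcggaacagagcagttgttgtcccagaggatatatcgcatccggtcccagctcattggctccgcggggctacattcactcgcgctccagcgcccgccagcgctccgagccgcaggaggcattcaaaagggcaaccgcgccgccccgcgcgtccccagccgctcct
Etv5 promoter chr16:22439720-22439905: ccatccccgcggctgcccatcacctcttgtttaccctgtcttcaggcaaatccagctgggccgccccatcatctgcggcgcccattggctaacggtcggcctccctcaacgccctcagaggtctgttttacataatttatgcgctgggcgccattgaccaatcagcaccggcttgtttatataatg

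The promoters of all 10 genes were open in all 3 replicates, that is, a site lay within 1 kb of at least 1 start site. Across all protein-coding genes 67.1% were open in this sense. A promoter peak was found at 10 of 10 genes in each replicate, against 72.7% of all genes in replicate 1, 71.8% in replicate 2 and 69.7% in replicate 3. Accessibility differed widely between the genes, with Etv5, Etv4 and Spry2 at the top and Fgf2, Fgfr3 and Fgf15 at the bottom. In bulk cells such as these, fewer cells with an open site and less cutting per cell cannot be told apart. The strongest promoter peak scored above 100 in every replicate at 7 of the 10 genes, compared with 40.8% of all genes. Fgfr2 is among the 7 only through a start site far from the gene body, described with the receptors, and its own start sites did not pass in replicate 2.

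Among the ligands, Fgf2, a heparin-binding factor released without a classical signal peptide, had promoter scores of 110, 96 and 75 in replicates 1, 2 and 3. The score was lowest in replicate 3, where it ranked at the 20.2 percentile of the genes with a promoter peak, against 36.8 in replicate 1. Another group of Fgf2 transcripts that starts farther downstream, at chr3:37380755, had its own site with scores of 62, 54 and 72. Fgf15, the mouse counterpart of the human hormone gene FGF19, had the weakest promoter of the 10. Its scores were 88, 64 and 61, at percentiles between 14.4 and 24.1, and the site at chr7:144895916-144896085 lay 446 bp from the nearest start site and did not cover it. The mean was 93.7 ± 17.6 for Fgf2 and 71.0 ± 14.8 for Fgf15 (SD, n = 3).

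The receptors are tyrosine kinases that bind these ligands. Fgfr1 had promoter scores of 125, 124 and 118, all at the group of start sites near chr8:25518759. Its annotated start farthest upstream, at chr8:25513654, had peaks in replicates 1 and 3 only, with scores of 44 and 42. The starts at chr8:25532125 and chr8:25532281 had a peak in replicate 1 alone, with a score of 32. The high Fgfr1 scores were found at 1 group of its start sites.

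Fgfr2 had scores of 104, 100 and 111 at its main start sites near chr7:130266263, a mean of 105 ± 5.57 (SD, n = 3). A further GENCODE transcript of Fgfr2 starts at chr7:133123350, 2.86 Mb from the next start and beside the start of Ctbp2, a transcriptional corepressor gene. The strongest peak near that start scored 123, 121 and 128 and lies nearer to Ctbp2. RefSeq ends Fgfr2 at chr7:130266808, so the values 104, 100 and 111 are used for Fgfr2 below. The group of Fgfr2 transcripts that starts at chr7:130261857 had a weaker peak, with scores of 63, 41 and 32.

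Fgfr3, the receptor known from studies of bone growth, had promoter scores of 89, 81 and 102. It was higher in replicate 3 than in replicates 1 and 2, and its percentiles ran between 24.6 and 37.3. Its start sites at chr5:33730221 and chr5:33733252 had no peak within 1 kb in any replicate. The mean was 122 ± 3.79 for Fgfr1 and 90.7 ± 10.6 for Fgfr3 (SD, n = 3).

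The Sprouty proteins are intracellular inhibitors of receptor tyrosine kinase signalling. Spry2 had promoter scores of 144, 140 and 128, in a site 477 bp upstream of its single start site. A second promoter site of Spry2, at chr14:105896956-105897205, scored 128, 122 and 107. Spry4 scored 133, 125 and 121 at its start site and 97, 92 and 109 in a site 661 bp from it. Spry1 scored 129, 117 and 110. At all 3 Sprouty genes the score of the strongest promoter peak was highest in replicate 1 and lowest in replicate 3. Their means were 137 ± 8.33 for Spry2, 126 ± 6.11 for Spry4 and 119 ± 9.61 for Spry1 (SD, n = 3).

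Etv4 and Etv5 are ETS transcription factors of the PEA3 subfamily. Etv5 had the highest mean promoter score of the 10 genes, with scores of 148, 147 and 142 at percentiles between 95.7 and 98.3. Etv4 followed by mean, with 140, 140 and 144, at percentiles between 79.6 and 98.1. In replicate 3 Etv4 scored above Etv5. Spry2 scored above Etv4 in replicate 1, with 144, and equalled it in replicate 2. The Etv5 start at chr16:22436514 had a peak in replicate 1, with a score of 78, and in replicate 2, with 62, but not in replicate 3. The mean was 146 ± 3.21 for Etv5 and 141 ± 2.31 for Etv4 (SD, n = 3).

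**Figure D1:**
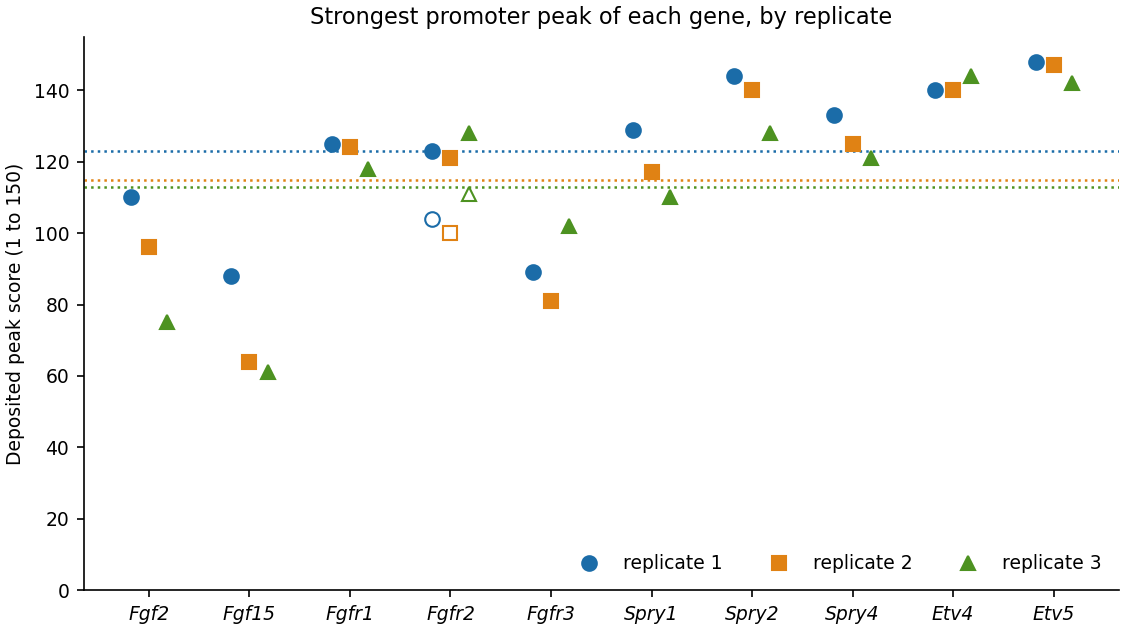
Deposited score of the strongest peak within 1 kb of any start site of each gene (vertical axis, 1 to 150), with 1 symbol per replicate. Dotted lines are the medians over all genes with a promoter peak, 123, 115 and 113 in replicates 1, 2 and 3, and open symbols are Fgfr2 without the start beside Ctbp2; Etv4, Etv5 and Spry2 lie above all 3 lines in every replicate, and Fgf2, Fgf15 and Fgfr3 below them.

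Ordered by mean score, the genes ran Etv5, Etv4, Spry2, Spry4, Fgfr1, Spry1, Fgfr2, Fgf2, Fgfr3 and Fgf15. Every pair of neighbours in this order overlapped in its range over the replicates. Within each replicate, the higher gene of the pair scored higher in all 3 for Spry2 over Spry4 (by 11, 15 and 7 in replicates 1, 2 and 3), Spry4 over Fgfr1 (by 8, 1 and 3) and Fgfr3 over Fgf15 (by 1, 17 and 41). The other 6 neighbouring pairs did not keep their order in all 3 replicates. The lowest Fgfr1 score, 118, lay above the highest Fgf2 score, 110, and the highest Fgfr3 score, 102. Across the replicates 7 genes had their lowest promoter score in replicate 3, while Fgfr2, Fgfr3 and Etv4 had their highest there. By percentile within a replicate, Fgfr1 was instead lowest in replicate 1, at 52.1, 60.5 and 55.8 in replicates 1, 2 and 3. The rest of the 7 were lowest in replicate 3 by percentile too. With the start beside Ctbp2 counted, the median over the 10 genes was 127, 122.5 and 119.5 in replicates 1, 2 and 3, against 123, 115 and 113 over all genes with a promoter peak. The hotspots that cover the strongest promoter peak were at the highest deposited −log10 q of 100 for every one of the 10 genes in each replicate, and the hotspot at Fgfr2's own start sites was at 100 as well. So were 51.4%, 48.2% and 43.9% of all hotspots in replicates 1, 2 and 3, so this value does not rank the genes.

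Distal open chromatin was dense round most of these genes. Together they had 131 distal sites, with a median of 15.5 per gene, against a median of 2 and a mean of 3.98 over all protein-coding genes. At least 5 distal sites were found at 9 of the 10 genes, compared with 29.4% of all genes. At least 10 were found at 7 of the 10, compared with 12.5% of all genes. The number also depends on how much genome lies nearest to a gene. Per 100 kb of that genome the values ran between 4.03 for Fgf15 and 22.9 for Etv4, and the median over all genes was 4.35.

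Fgf2 had 14, 14 and 5 distal peaks in replicates 1, 2 and 3, of which 5 sites were found in all 3. All 5 lie in its introns. Fgf15 had 2, 3 and 2 distal peaks and 1 site, which lies just past the 1 kb limit at 1046 bp from the start. The ligands were the genes with the fewest distal sites, along with Fgfr3.

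Fgfr1 had 35, 37 and 28 distal peaks and 20 sites, 12 upstream and 8 within its introns. Fgfr2 had 32, 31 and 30 distal peaks and 18 sites, 11 of them in its introns. Its number in replicate 3 stood within 1 or 2 of the others, while the other receptors had fewer there. Fgfr3 had 11, 11 and 7 distal peaks and 5 sites, with 4 upstream and 1 past the end of the gene.

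Spry2 had 47, 43 and 28 distal peaks and 22 sites, the most of the 10 genes. Of these, 19 are intergenic and 2 are centred in its exons. Spry4 had 24, 24 and 20 distal peaks and 15 sites, of which 13 are intergenic. Spry1 had 22, 20 and 13 distal peaks and 11 sites, and 2 of them lie in introns of Spata5. Spry1 and Fgf2 lie on the same chromosome, with 291.6 kb between their gene starts and Spata5 between them.

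Etv4 had 24, 25 and 19 distal peaks and 18 sites, 12 of them upstream, and the highest density of the 10 genes. Etv5 had 40, 31 and 24 distal peaks and 16 sites. Of the Etv5 sites, 5 lie in its own introns and 8 in introns of the neighbouring Dgkg, a diacylglycerol kinase gene. Without the start beside Ctbp2, 46 of the 131 sites are intronic, 82 intergenic and 3 exonic, and 66 lie downstream and 65 upstream of the nearest start.

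**Figure D2:**
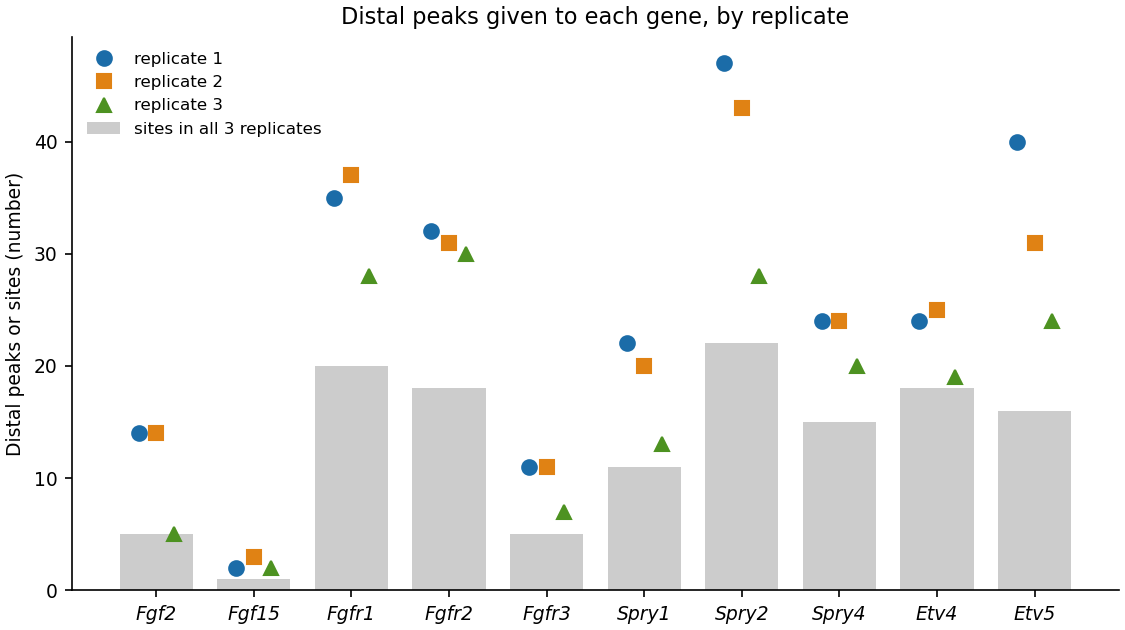
Number of distal peaks of each gene in each replicate (symbols) and of sites found in all 3 replicates (grey bars). Spry2 has the most sites, 22, and Fgf15 the fewest, 1; in replicate 3 every gene but Fgf15 lies below both other replicates.

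The strongest distal sites reached the scores of strong promoters. In all, 18 of the 131 sites, or 13.7%, scored above 100 in every replicate, compared with 6.16% of all 86142 distal sites. At Fgfr1 the intronic site at chr8:25537316-25537485, 5035 bp from the nearest start, scored 146, 143 and 135. It exceeded the Fgfr1 promoter in all 3 replicates. A second intronic site close by, at chr8:25536656-25536885, scored 134, 128 and 122, and the intergenic site at chr8:25465576-25465765 scored 142, 141 and 120.

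At Etv5 the intronic sites at chr16:22428976-22429185 and chr16:22389196-22389405 scored 145, 140 and 136, and 136, 129 and 109. At Fgf2 the intronic site at chr3:37360796-37361045 scored 146, 139 and 117, above the Fgf2 promoter in each replicate. At Spry1 the site 13996 bp downstream of the start, at chr3:37654076-37654245, scored 136, 133 and 127. The Spry1 site at chr3:37586176-37586365, upstream, scored 133, 124 and 121. Both exceeded the Spry1 promoter in every replicate.

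The other genes each had 1 site that stood highest. The Spry2 site at chr14:105979936-105980145 scored 135, 129 and 102 and lies 83117 bp upstream. The Etv4 site at chr11:101772556-101772725, in an intron, scored 130, 111 and 128. The Fgfr2 site at chr7:130289176-130289345, upstream, scored 128, 115 and 102.

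The Fgfr3 site at chr5:33705336-33705525, 16149 bp upstream, scored 120, 116 and 131, above the Fgfr3 promoter in each replicate. The single Fgf15 site at chr7:144895316-144895485 scored 51, 56 and 39. The strongest distal site had its lowest score in replicate 3 at 8 of the 10 genes, and in replicate 2 at Fgfr3 and Etv4. Over all distal sites the median score was also lowest in replicate 3, at 78, 65 and 45 in replicates 1, 2 and 3.

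**Figure D3:**
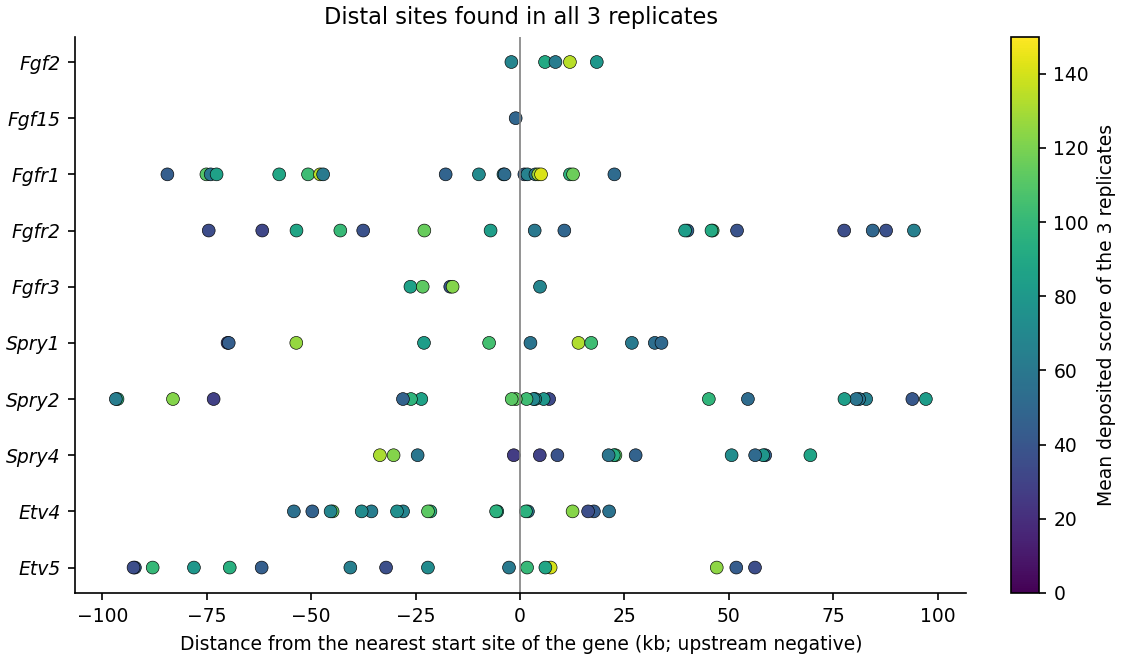
Distance of each distal site from the nearest start site of its gene, in kb (upstream negative), with the mean deposited score of the 3 replicates as colour. The highest scoring site lies 16149 bp upstream at Fgfr3 and 83117 bp upstream at Spry2.

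The strongest distal sites of Spry4 are intergenic and lie upstream. The site at chr18:38634976-38635165, 33561 bp upstream, scored 142, 136 and 115. A second, chosen here after its values were seen, lies at chr18:38631696-38631865 and scored 125, 121 and 121. The Spry4 site nearest to the start, 1501 bp upstream, was among its weakest, with scores of 33, 22 and 25.

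Several weaker sites have features of their own. The Spry1 site at chr3:37642576-37642745, with scores of 77, 58 and 39, is centred in an exon of Spry1 and holds an AP-1 match. The Spry2 sites at chr14:105893016-105893185 and chr14:105893356-105893585 are centred in an exon of Spry2 and scored 88, 75 and 65, and 79, 63 and 67. Of the Fgfr1 sites, 2 lie within 1 kb of the start of a long non-coding RNA, Gm30978 at chr8:25428976-25429205 and Gm45237 at chr8:25440836-25440985. The Etv4 site at chr11:101763796-101763965 lies in an intron of Dhx8, a helicase gene. These sites were chosen after their values were seen.

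The distance limits cut through a continuous run of sites. Just inside 1 kb, and so counted with the promoters, the Etv4 site at 945 bp scored 41, 35 and 51 and the Etv5 site at 925 bp scored 90, 75 and 106. Just outside, the Spry2 site at 1017 bp scored 120, 104 and 116 and the Fgfr1 site at 1039 bp scored 62, 35 and 40. Near 100 kb, the farthest counted site of Spry2, at 97194 bp, scored 103, 93 and 51, and the nearest site left out, 102593 bp from Fgfr2, scored 41, 37 and 53.

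The replicates shared 44.0% of the 298 distal regions that had a peak in at least 1 of them, against 39.8% over all genes. A further 76 regions, or 25.5%, had a peak in replicates 1 and 2 only, against 27.2% over all genes. Peaks of replicate 3 alone made up 8.72%, against 5.35% over all genes. Regions found in all 3 replicates had median scores of 83, 74 and 53 in replicates 1, 2 and 3, against 78, 65 and 45 over all genes. Within replicates 1 and 2 the regions found only in those had lower medians, 50.5 and 41, against 46 and 35 over all genes. Within replicate 3 the regions found there alone had a median of 25.5, against 24 over all genes.

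Some strong peaks of replicates 1 and 2 had no counterpart in replicate 3. The highest, chosen after the values were seen, lies at chr16:22389696-22389845 in Etv5 and scored 116 and 101 in replicates 1 and 2, less than 500 bp from the Etv5 site shown above at chr16:22389196-22389405. The next lies at chr7:130289496-130289665 upstream of Fgfr2, with scores of 105 and 104, and stands beside the strongest distal site of Fgfr2. The third, at chr14:105890736-105890905 downstream of Spry2, scored 106 and 78. The highest peak of replicate 3 alone, at chr3:37642916-37643065 in Spry1, scored 53.

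The genes differed in this pattern. Fgf2 had 8 of its 15 distal regions in replicates 1 and 2 only. Without replicate 3 the number of shared distal sites moved by over 1.5 times at 7 of the 10 genes. It was then 13 in place of 5 at Fgf2, 2 in place of 1 at Fgf15, 28 in place of 18 at Fgfr2, 9 in place of 5 at Fgfr3, 18 in place of 11 at Spry1, 37 in place of 22 at Spry2 and 29 in place of 16 at Etv5. Etv5 then had more sites than Etv4, which had 23 in place of 18. Etv4 had 18 of 26 regions in all 3 replicates. Fgfr2 had 10 of its 45 regions in replicate 3 alone, the most of the 10 genes. Replicate 3 had the fewest peaks of all. As given above, it had a promoter peak at 6 of 19 microglia and macrophage markers, against 19 in each other replicate. The part of either in these differences was not tested.

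**Figure D4:**
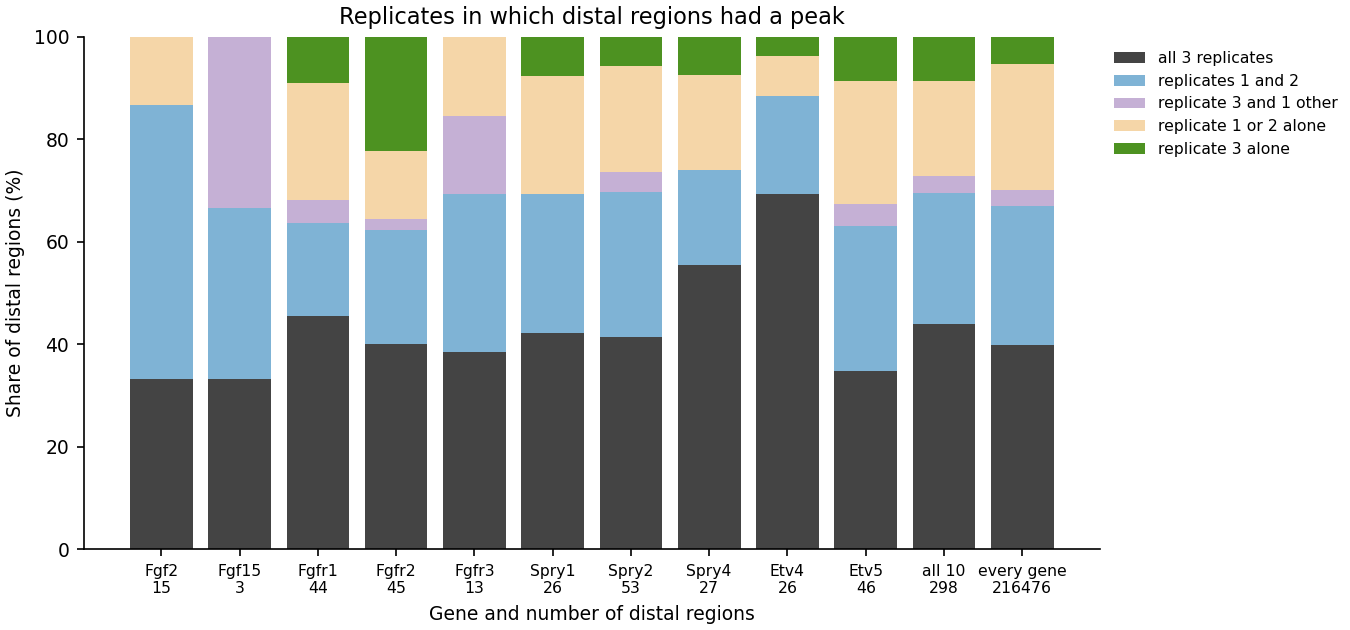
Share of distal regions (vertical axis, %) by the replicates in which they had a peak, for each gene, for the 10 together (298 regions) and for every protein-coding gene (216476 regions). Etv4 has the largest share in all 3 replicates, and Fgfr2 the largest share in replicate 3 alone, 22.2%.

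Consensus matches in the distal sites of these genes were counted beside those in all distal sites. In 150 bp round the site centre, SOX matches were found in 10 of 131 sites, or 7.63%, against 3.59% of all distal sites. They lay at Fgfr1, Fgfr2, Fgfr3, Spry2, Spry4 and Etv5. Homeobox matches were found in 11 sites, or 8.40%, against 5.83%. AP-1 matches, at 19 sites or 14.5%, were less frequent than the 20.6% of all distal sites. Matches to the CTCF consensus, the motif of an insulator protein, were found in 2 sites, or 1.53%, against 7.64%, and both lie upstream of Etv4.

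TEAD matches were found in 25 sites, or 19.1%, against 19.0%, and RUNX matches (TGTGGT) in 23, or 17.6%, against 17.1%. E-box matches (CAGCTG) were found in 23 sites, or 17.6%, against 13.9%, RFX matches (GTTGCC) in 10, or 7.63%, against 6.88%, and SP and KLF matches (GGGCGG) in 13, or 9.92%, against 6.50%. The ETS consensus was found in 2 sites, or 1.53%, against 1.09%, and the PU.1-type consensus, which shares the letters GGAAG with it, in 1, or 0.763%, against 1.30%. The full NFI palindrome was found in none of the 131 sites, against 0.0929% of all distal sites. These are counts of few sites, given without a test, and several sites share a gene.

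**Figure D5:**
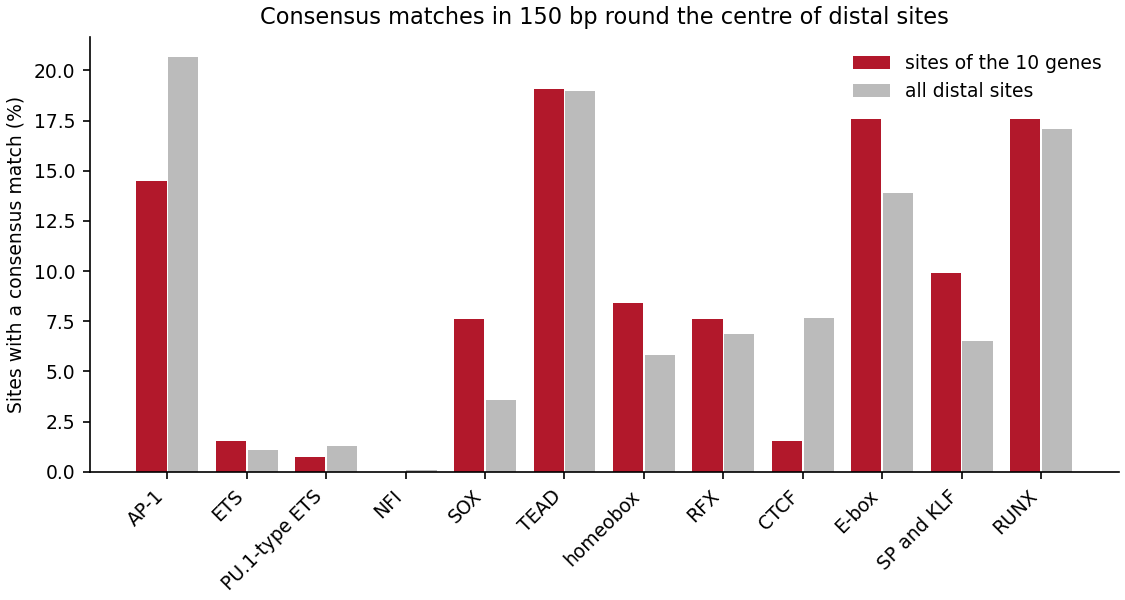
Share of distal sites (vertical axis, %) with a consensus match in 150 bp round the centre, for the 131 sites of the 10 genes (red) and all 86142 distal sites (grey). SOX stands at 7.63% against 3.59%, CTCF at 1.53% against 7.64%, and TEAD and RUNX are nearly level.

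At the 26 promoter sites nearest to these genes, SP and KLF matches were found in 10, or 38.5%, against 44.6% of all promoter sites. RFX matches were found in 4, or 15.4%, against 7.24%. With a window of 100 bp in place of 150 bp they were found in 1, or 3.85%, against 4.95%. No AP-1 match and no ETS match was found, against 5.69% and 8.16% of all promoter sites. With a window of 200 bp 1 site held an ETS match, or 3.85%, against 9.77%. So few sites can show little by the lack of a match, and no test was made. The median GC content was 62.0%, against 64.0%.

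The rest of the pathway was open to different degrees. Of 16 other FGF ligand genes 11 had an open promoter, or 68.8%, and their median was 2.5 distal sites, both close to the 67.1% and the median of 2 over all genes. Fgf6 and Fgf17 had no promoter peak in any replicate. Fgf1, a ligand that binds all FGF receptors, had the most distal sites of that list, 25, followed by Fgf9 with 10. The promoter scores of Fgf1 were 99, 77 and 85.

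Of 7 other receptor and co-receptor genes 4 were open, with a median of 6 distal sites. Flrt1 and Klb, the co-receptor for endocrine FGFs, had no promoter peak in any replicate. Flrt2 had 16 distal sites and Kl 8. The 4 intracellular FGF homologous factors, which do not act through the receptors, were all open, with 15 distal sites at Fgf12 and 12 each at Fgf13 and Fgf14.

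All 20 genes of the list for transduction between receptor and ERK were open, with a median of 5 distal sites, and Gab1, a docking protein, had the most, 26, followed by Araf with 10. Of 12 other feedback inhibitor genes listed, 11 were found among the genes used here, and these 11 were all open, with a median of 14 distal sites. Dusp6, an ERK phosphatase, and Spred2, a Sprouty-related inhibitor, had 23 each. All 7 other ETS genes of the ERK pathway were open, with a median of 7 distal sites, and Ets1 had 25 and Elk3 22. Of the 6 lists, the feedback inhibitors had the median nearest to the 15.5 of the 10 genes, as a description with no test.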

How the data were processed

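DNase-seq of 3 replicates of 1 group was used. Per the file headers, the authors deposited, for each library alone, peaks on mm10 with a score and hotspots with a −log10 q value. The meaning of the score is not stated; its top value of 150 is also the width of a peak, which may limit it at strong sites. The aligner, the peak caller and the filters on reads were not given in the sources used here. Duplicate peaks (21, 20 and 23) were removed, peaks of the 3 replicates were merged at an overlap of at least 1 bp, and regions with a peak of every replicate were called sites. Start sites are those of protein-coding GENCODE transcripts, and sites on autosomes and X were used. Of 351961 merged regions 145262 were sites, with 24976 at promoters and 86142 distal within reach. Percentiles are among genes with a promoter peak in that replicate. Matches to 12 consensus motifs were counted, on either strand, within windows of 150 bp centred on the sites. Sequences were read from the RefSeq GRCm38 genome; the promoter table matched 6 of the 10 genes, and its letters were the same as in that genome. The named genes are the 10, the strongest distal sites, and, of each other list, genes with no promoter peak and those with most distal sites. The genes and lists were chosen with earlier results of these data known, and no test was used. The merging and counting were tested on simulated data. Python 3.11.15, pandas 2.3.3 and pysam 0.24.0 were used.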

Additional observations from a re-analysis of the deposited data

How the results depend on the processing

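All 10 promoters stayed open with a 75 bp overlap, the strongest 50% of peaks, equal peak numbers and windows of 500 or 2500 bp. They also did so with hotspots in place of peaks and with each replicate left out in turn. With 1 start site per gene 9 stayed open, since Fgfr1 was lost. In that setting the only Fgfr2 start was the one beside Ctbp2. Fgfr2 thus counted as open through that start alone, and its 22 distal sites there lay within 100 kb of it. The 131 distal sites became 81 with the strongest 50% of peaks, and 134 to 207 when 1 replicate was left out, the 207 without replicate 3; the other alternatives gave 89 to 154. With a window of 100 bp SOX matches numbered 6 (4.58%, against 2.51% of all distal sites) and homeobox matches 7 (5.34%, against 3.96%), in place of 10 and 11; with 200 bp CTCF matches numbered 4 (3.05%, against 8.16%), in place of 2. SOX, homeobox and CTCF each kept their side of the share over all sites. E-box and RUNX matches did not keep theirs. With 100 bp E-box matches numbered 12 (9.16%, against 9.69%), and with 200 bp RUNX matches numbered 27 (20.6%, against 20.9%). Leaving out the Fgfr2 start beside Ctbp2, chosen after seeing the data, gave a mean Fgfr2 promoter score of 105 in place of 124. Fgf15 had 0 to 3 distal sites over the alternatives. No paired analysis was possible because there is 1 group. Read depth is unknown, so a missing peak does not show closed chromatin.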
